A study of Drosophila melanogaster with 16 samples.

Results

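Pericentric heterochromatin genes are the genes that lie next to the centromeres, in the repeat-rich DNA that flanks them. They were taken here by position alone, from transcripts of the Release 6 assembly of Drosophila melanogaster that start at or beyond base 22000000 of 2L or X, before base 4200000 of 3R, or in the last stretch of 3L, whose first gene is BoYb at base 22901912. Symbols made of CR and digits, mostly non-coding RNAs, were left out. The rule found 143 genes of the 16083 listed in either table, 38 of them on 2L, 43 on 3L, 14 on 3R and 48 on X. All 143 matched a RefSeq gene, 129 of them protein-coding. Another 10 were copies of rRNA sequence on X (9 annotated as rRNA pseudogenes), and the rest were 2 snoRNAs and 2 miRNAs.

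Pericentric heterochromatin is packed with histone H3 methylated at lysine 9 and with heterochromatin protein HP1a, a packaging that silences a euchromatic gene moved into it. Genes that live there, such as light and rolled, are unusual because they need the heterochromatic surroundings and its proteins for full expression. The male-specific lethal (MSL) complex is a different chromatin system. It binds the single X of males, acetylates histone H4 at lysine 16 and is normally not assembled in females, because Sex-lethal blocks translation of its subunit MSL2.

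RNA was sequenced from pools of about 20 intact larvae in the third instar, grown at 25 °C. Trisomy 2L females and males came from y; C(2L)dp; F(2R) bw mothers and carried 3 copies of arm 2L, with 2 X chromosomes in females and 1 in males, and metafemales came from C(1)DX, ywf/winscy mothers and carried 3 X chromosomes and 2 copies of 2L. Their fathers were Canton S, or carried an MSL2 transgene on 2R for the MSL2-trisomy 2L and MSL2-metafemale groups, and the diploids were Canton S larvae of each sex. By the labels a trisomy 2L group has 3 libraries and a metafemale group 2. The tables hold 1 mean per group and transcript, in CPM (read counts scaled to a common number of mapped reads) after adjustment for sequencing batch. No library values were available here, so the values below have no error, no test was possible, and the number of reads behind each value is unknown.

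Several facts touch every ratio. The MSL2 groups were sequenced with paired-end reads and the diploids with shorter single-end reads, so that in a ratio of an MSL2 group to diploids MSL2 and sequencing run cannot be told apart except through the batch adjustment the authors made. Trisomy 2L and metafemale libraries without MSL2 were run both ways by the study's methods, paired-end beside the MSL2 groups and single-end beside the diploids, and which of them the means hold is not stated. The diploid means come from samples outside the sample list used here. One table holds the trisomy 2L groups and another the metafemales, each with its own diploid means, and comparisons within a sex and table share those diploid means. The compound arm is labelled as 3 copies of 2L with no boundary given near the centromere. The level of msl-2 was 8.99 CPM in diploid females, 20.1 in trisomy 2L females and 177 in MSL2-trisomy 2L females, and 22.6, 52.8 and 266 in the corresponding males. In the metafemale table it was 12.3 CPM in diploid females, 8.31 in metafemales and 95.3 in MSL2-metafemales. Tissue markers also moved with the groups. The summed level of 5 salivary gland glue genes was 27263 CPM in diploid females, 7457 in trisomy 2L females and 787 in MSL2-trisomy 2L females, and 40620, 3899 and 2087 CPM in diploid females, metafemales and MSL2-metafemales. The sum of 5 body wall muscle genes was 7665, 14413 and 23865 CPM in the first set and 3893, 15606 and 17332 CPM in the second. In diploid, trisomy 2L and MSL2-trisomy 2L males the glue genes summed to 26501, 7778 and 10794.5 CPM. The muscle genes summed to 6313, 16291 and 12510 CPM in these males, so with MSL2 both sums moved the other way from females. The part of tissue content in the ratios was not tested, and in whole larvae fewer cells of a type and less RNA per cell cannot be told apart.

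The level of pericentric genes was lower in aneuploid larvae than in diploids of the same sex, and their median ratio lay below that of all genes. Their summed level made up 1.78% of the diploid female total, 1.49% of the trisomy 2L female total and 1.2% of the MSL2-trisomy 2L female total. In males the shares were 1.70% in diploids, 1.45% in trisomy 2L and 1.38% in MSL2-trisomy 2L. In the metafemale table they were 2.03% in diploid females, 1.23% in metafemales and 1.05% in MSL2-metafemales. Ribosomal protein genes made up between 58.0% and 75.7% of these sums, so the share follows a few genes. The sums also hold the rRNA copies, whose values are uncertain. In the metafemale table these copies were 3355 of 18898 CPM in diploid females, 1492 of 10809 in metafemales and 754 of 11164 in MSL2-metafemales.

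Single genes were then compared, with the transcripts of a gene summed and a mean level of at least 1 CPM over all groups of the table required, which 127 of 143 genes passed in the trisomy 2L table and 117 of 138 in the metafemale table. A gene was counted as lower or higher when the group means differed at least 1.5-fold. In trisomy 2L females the median ratio to diploid females was 0.699 for pericentric genes and 0.958 for all genes. Of 118 pericentric genes with both means, 49 were lower and 13 higher, where 24.1% of all genes were lower and 25% higher. With the rRNA copies left out the median was 0.794, with 42 of 109 lower. In MSL2-trisomy 2L females the median was 0.675 against 0.889 for all genes, with 55 of 111 lower and 16 higher, where 34.9% of all genes were lower and 26.7% higher. Without the rRNA copies it was 0.595, with 54 of 102 lower.

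Males gave values in the same range. In trisomy 2L males the median ratio was 0.724 for pericentric genes and 0.907 for all genes, and 55 of 126 pericentric genes were lower and 18 higher, where 31.2% of all genes were lower and 23.9% higher. In MSL2-trisomy 2L males it was 0.674 against 0.927, with 62 of 126 lower and 16 higher, where 31.3% of all genes were lower and 26.2% higher. Without the rRNA copies the medians were 0.768 and 0.7.

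Metafemales have no extra copy of an autosome, and the median of pericentric genes was 0.701 in them against 0.874 for all genes. Of 117 genes, 53 were lower and 21 higher, where 31.1% of all genes were lower and 18.6% higher. In MSL2-metafemales the median was 0.695 against 0.790, with 50 of 108 lower and 23 higher, where 39.3% of all genes were lower and 20% higher. Without the rRNA copies the medians were 0.723 and 0.763, and the second of these differed little from the median of all genes. The share of lower genes in MSL2-metafemales also depended on scaling, and with the trimmed mean of all log2 ratios set to 0 the split was 35 lower and 26 higher, where 27.1% of all genes were lower and 28.1% higher. With equal column totals it was 58 and 18, where 47.5% and 16.5% of all genes were.

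**Figure D1:**
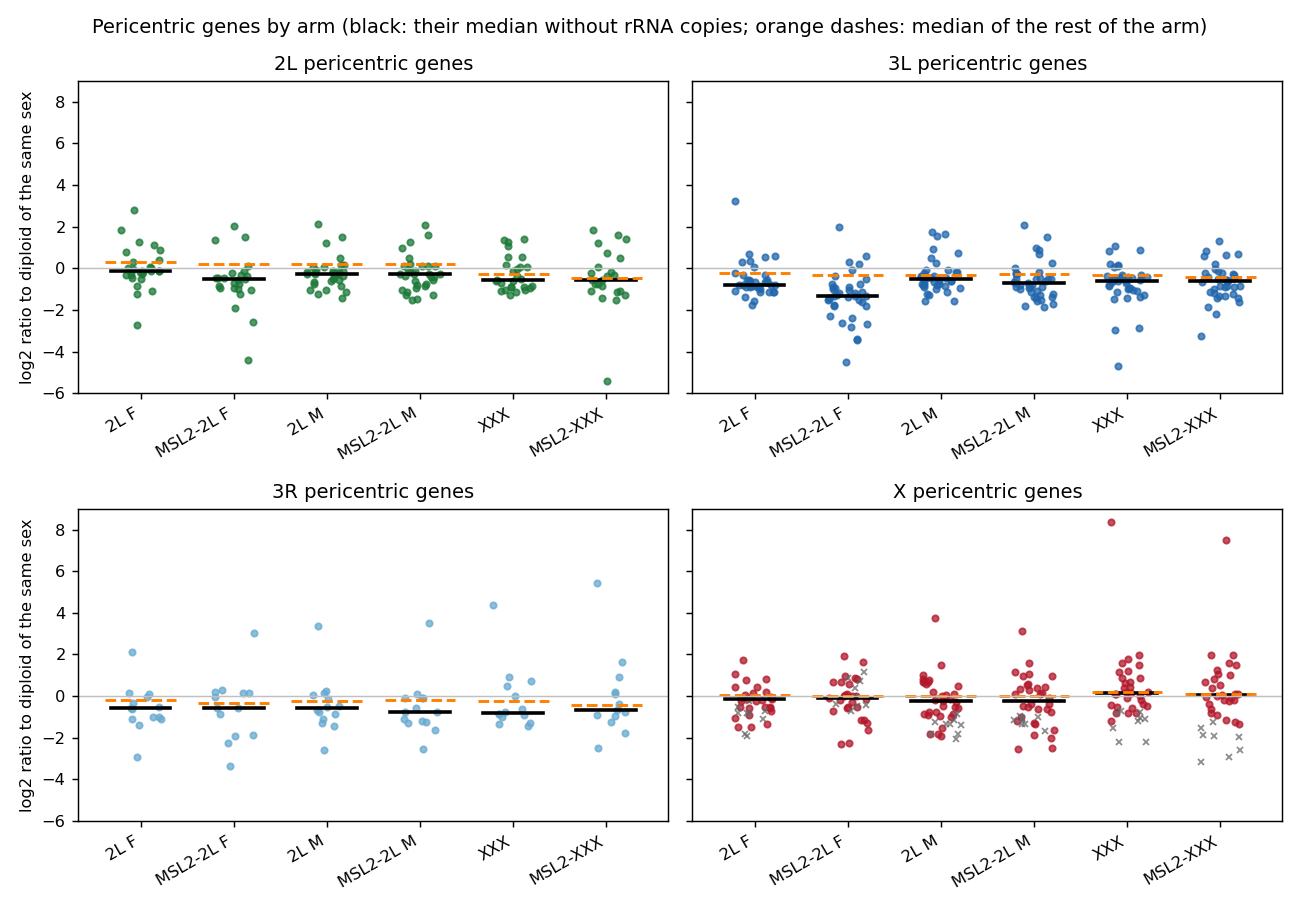
Each point is a pericentric gene with a mean level of at least 1 CPM, placed by its log2 ratio to the diploid of the same sex (vertical axis) in the 6 aneuploid groups (horizontal axis; 2L F and 2L M are trisomy 2L females and males, XXX metafemales). Black lines are medians without the rRNA copies (grey crosses), and orange dashes the median of the other genes of the arm; the 3L medians lie below the dashes in all 6 groups, and the X medians by a narrower margin than 3L in all groups but trisomy 2L males.

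The 4 arms differed. On chromosome 3, which has 2 copies in every group, the median ratio of the pericentric genes in trisomy 2L females was 0.601 against 0.872 for the other genes of 3L and 3R, and 32 of 52 (61.5%) were lower against 28.6% of the others. In MSL2-trisomy 2L females the median was 0.441 against 0.801, and 36 of 51 (70.6%) were lower against 39.6%. In trisomy 2L males it was 0.693 against 0.828, with 26 of 53 (49.1%) lower against 35.9% of the others, and with MSL2 in males 0.596 against 0.844, with 31 of 53 (58.5%) lower against 35%. Metafemales had 0.645 against 0.828, with 27 of 51 (52.9%) lower against 34.3%, and MSL2-metafemales 0.640 against 0.743, with 26 of 49 (53.1%) lower against 42.8%. The gap to the rest of the chromosome was widest in MSL2-trisomy 2L females, where it was -0.86 on the log2 scale. It was narrowest in MSL2-metafemales (-0.22), but in trisomy 2L males when only transcripts with both means were used (-0.23 against -0.27) or at a minimum of 10 CPM (-0.42 against -0.44). The differences between these gaps were not tested.

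Pericentric genes of 2L stood below the rest of their own arm as well. In trisomy 2L females the median ratio was 0.909 against 1.22 for the other genes of 2L, and in MSL2-trisomy 2L females 0.697 against 1.14. The values were 0.830 against 1.15 in males with trisomy 2L and 0.817 against 1.16 in those that also had MSL2. In metafemales, with 2 copies of 2L, they were 0.686 against 0.833, and in MSL2-metafemales 0.690 against 0.734. The low male genes of 2L lay mostly in the first 500 kb past the limit, which holds the male cluster described below. Its medians were 0.698 with trisomy 2L (8 of 18 lower) and 0.625 with MSL2 (10 of 18), where 31.2% and 31.3% of all genes were lower. The male genes farther in had 0.903 and 0.924, with 1 of 14 lower in each, and the 2 Mb before the limit 0.981 and 1.03. In metafemales and MSL2-metafemales the genes farther in were instead the lower class, at 0.604 and 0.597.

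On X the gap depended on the group. Without the rRNA copies the median ratio was 0.911 in trisomy 2L females against 1.03 for the rest of X, 0.950 against 1.01 with MSL2, 0.856 against 1.01 in trisomy 2L males and 0.845 against 1.02 with MSL2. In metafemales, which have 3 copies of X, it was 1.11 against 1.16, and in MSL2-metafemales 1.04 against 1.07. In trisomy 2L males the X gap (0.856 against 1.01) was wider than that of 3L (0.693 against 0.795). Chromosome 4, a small chromosome that is largely heterochromatic, had medians of 0.658 and 0.491 in trisomy 2L females without and with MSL2, 0.784 and 0.708 in the males, and 0.799 and 0.738 in metafemales.

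Position past the limit separated the genes most clearly on 3R. The 5 genes more than 500 kb past the limit (Alg-2, Parp1, spok, Pzl and Myo81F, in order towards the centromere) had a median ratio of 0.458 in females and 0.470 in males with trisomy 2L, 0.404 in males that also had MSL2 and 0.407 in metafemales, and all 5 were lower in each. Of all genes, 24.1%, 31.2%, 31.3% and 31.1% were lower in these groups. Pzl had 7.55 CPM in diploid males but 0.169 and 0.0219 CPM in diploid and trisomy 2L females. Its ratio in trisomy 2L females therefore rests on values near 0. With MSL2 in females Pzl had no mean and the other 4 genes were lower, with medians of 0.236 in MSL2-trisomy 2L females and 0.392 in MSL2-metafemales. The shares of all genes lower were 34.9% and 39.3%. The 9 genes of the first 500 kb had medians of 0.807 and 1.11 in trisomy 2L females without and with MSL2, and of 1.00 and 1.08 in metafemales. On 3L the genes of the first 500 kb were already low, with a median of 0.634 in trisomy 2L females against 0.574 for those farther in, whereas the 172 genes of the 2 Mb before the limit had 0.795. In trisomy 2L males the first 500 kb of 3L had 0.761 and the 2 Mb before it 0.757, and the 27 genes farther in had 0.647. These distance classes were chosen after the data were seen.

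**Figure D2:**
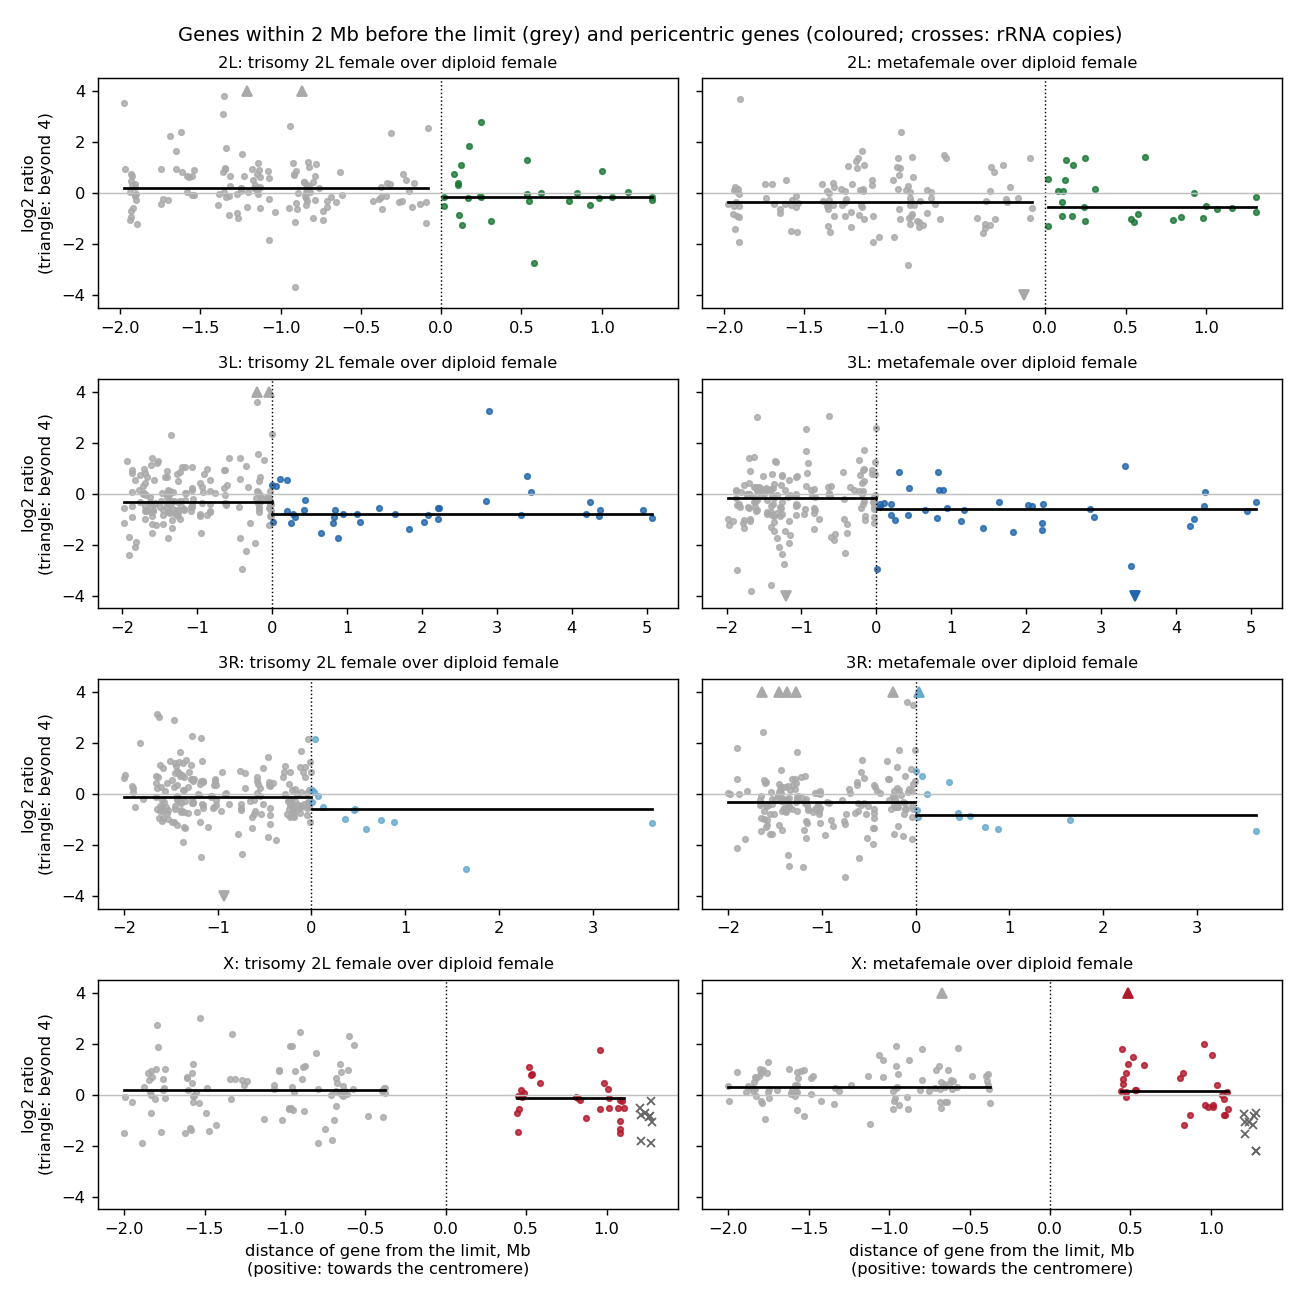
Log2 ratio to diploid females (vertical axis) against distance of the gene start from the position limit in Mb (horizontal axis, towards the centromere on the right), for trisomy 2L females (left) and metafemales (right) on each arm. Grey points are genes of the 2 Mb before the limit, coloured points pericentric genes, crosses rRNA copies, triangles values beyond 4 and black lines medians without rRNA copies. On 3R the 5 genes past 0.5 Mb lie between ratios of 0.130 and 0.5 in trisomy 2L females. The lowest, Pzl, had only 0.169 and 0.0219 CPM in diploid and trisomy 2L females.

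Parp1 encodes poly(ADP-ribose) polymerase, which modifies chromatin proteins and opens chromatin. It spans bases 3461351 to 3587054 of 3R. Its level was 64.8 CPM in diploid females, 32.4 in trisomy 2L females and 13.5 in MSL2-trisomy 2L females, ratios of 0.5 and 0.209. In males it was 83.5, 45.3 and 33.8 CPM, and among the groups set beside metafemales 43.6 CPM in diploid females, 17.7 in metafemales and 23.6 in MSL2-metafemales. All 6 aneuploid means of Parp1 lay below both diploid means of their own table.

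The gene spok (spookier) encodes a cytochrome P450 of ecdysone synthesis and lies at bases 3322810 to 3354486 of 3R. Its level was 52.8, 24.7 and 5.13 CPM in diploid, trisomy 2L and MSL2-trisomy 2L females, and 44.0, 20.7 and 14.3 CPM in the males. In the metafemale table its level was 29.6 CPM in diploid females, 11.6 in metafemales and 8.73 in MSL2-metafemales. The other pericentric gene of that pathway is nvd (neverland, bases 24324866 to 24401655 of 3L), an oxygenase that converts cholesterol in the first step. Its level was low, at 2.59, 1.77 and 0.985 CPM in the females and 3.41, 1.33 and 1.26 CPM from diploid females to MSL2-metafemales, but the males went the other way, from 1.37 CPM in diploids to 2.61 and 2.70 CPM. Both genes act in the prothoracic gland, for which 4 other genes summed to 66.1, 66.4 and 33.3 CPM in diploid, trisomy 2L and MSL2-trisomy 2L females and to 82.0, 63.1 and 46.3 CPM from diploid females to MSL2-metafemales. These genes did not move together, since from diploid to trisomy 2L females sad went from 4.37 to 14.0 CPM and sro from 47.4 to 38.8 CPM. The part of gland content in the ratios was not tested.

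Chromatin genes of 3L varied more. The cohesin subunit Rad21 is encoded by vtd (verthandi, bases 27136525 to 27157999), which had 38.8, 30.8 and 12.6 CPM in diploid, trisomy 2L and MSL2-trisomy 2L females, and 57.0, 28.2 and 25.6 CPM from diploid females to MSL2-metafemales. In males it was higher in trisomy 2L (37.9 CPM) and MSL2-trisomy 2L (28 CPM) than in diploids (23.0). Set1, a histone H3 lysine 4 methyltransferase whose annotation overlaps that of MED21, had 25.7, 17.6 and 9.65 CPM in the females and 43.7, 22.6 and 18.4 in the males. In the metafemale table Set1 had 40.5 CPM in diploid females, 18.5 in metafemales and 18 in MSL2-metafemales. AGO3, which cleaves transposon RNA in the piRNA pathway, was low in females (2.77, 0.946 and 0.535 CPM) and higher in males (13.9, 6 and 4.20 CPM). Its ratio was 0.648 in metafemales and 0.912 in MSL2-metafemales.

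**Figure D3:**
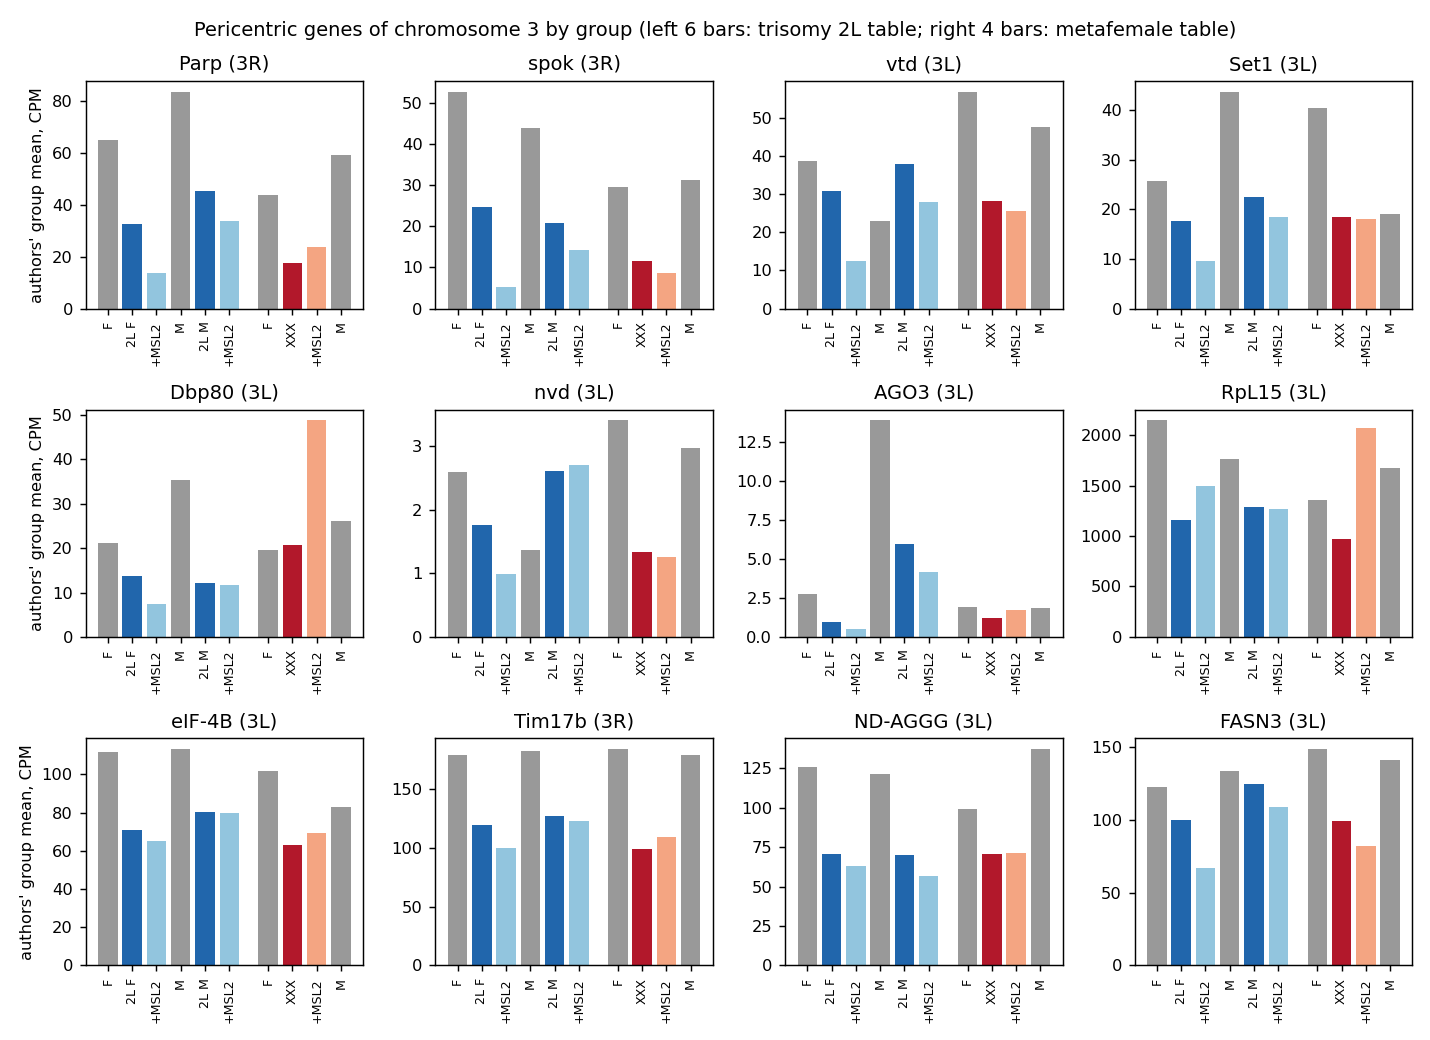
Bars are the authors' group means in CPM (vertical axes from 0, without error bars since 1 mean per group was available) for 12 pericentric genes of chromosome 3 (Parp and eIF-4B, as listed, are Parp1 and eIF4B), with the trisomy 2L table on the left of each panel and the metafemale table on the right; F and M are diploids, and +MSL2 the MSL2 group of the aneuploid bar to its left. Parp1 and spok were lower in all 6 aneuploid groups, whereas Dbp80 reached 48.8 CPM in MSL2-metafemales against 19.7 in diploid females.

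Genes for the ribosome held the highest levels. RpL5, RpL21, RpL15 and RpL10, proteins of the large ribosomal subunit, averaged 5437, 2249, 1518 and 787 CPM over the trisomy 2L table. RpL15 (bases 27267255 to 27268445 of 3L) had 2146 CPM in diploid females, 1157 in trisomy 2L females and 1491 in MSL2-trisomy 2L females, then 1358, 972 and 2067 CPM from diploid females to MSL2-metafemales, so that it was above the diploid in MSL2-metafemales only. RpL5 and RpL21, on 2L, had ratios of 0.990 and 0.902 in trisomy 2L females and 0.495 and 0.466 in metafemales. With MSL2 in trisomy 2L females the RpL21 ratio was 0.480 and that of RpL5 0.864. RpL10 had 590 CPM in diploid females of the trisomy 2L table and 1071 in those of the metafemale table, and its ratio was 1.45 in trisomy 2L females and 0.761 in metafemales. RpL5 and RpL15 each hold a snoRNA gene, whose reads may be shared with the host. The initiation factor eIF4B had ratios between 0.586 and 0.707 in all 6 comparisons.

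Values of mitochondrial genes differed from gene to gene. Tim17b, a subunit of the inner membrane translocase, had 179, 120 and 99.7 CPM in the females, 183, 127 and 123 CPM in the males, and 184, 99.2 and 109 CPM from diploid females to MSL2-metafemales. Its partner Tim23, at the centromeric end of 2L, had ratios of 0.895 and 0.709 in trisomy 2L females without and with MSL2 and 0.604 and 0.597 in metafemales. ND-AGGG, a subunit of respiratory complex I, had ratios between 0.468 and 0.722. Against these, ND-MLRQ, another complex I subunit of 3L, had 1.16 in metafemales and 1.76 in MSL2-metafemales. The fatty acid synthase FASN3 had ratios from 0.543 to 0.935.

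Genes of membrane traffic and the synapse also differed from one another. Vps11, a subunit of the lysosomal tethering complexes that was named after its values were seen, had 41.9, 18.8 and 8.71 CPM in the females and 42.1, 19.5 and 14.6 in the males, and 38.7, 18.9 and 16.7 CPM in the metafemale series, lower in all 6. The gene lt (light) of 2L encodes Vps41, which works in the same complex, and its ratios lay on both sides of 1, between 0.606 and 1.41. Snap25, a SNARE protein of synaptic vesicle release listed as Sp25, had ratios of 0.465 and 0.289 in trisomy 2L females without and with MSL2, of 0.872 and 0.288 in the males, and 0.640 and 0.862 in the metafemale groups. The acetylcholine receptor subunit nAChRalpha4 had ratios from 0.490 to 0.591 in the trisomy 2L groups but 1.78 in metafemales and 1.63 in MSL2-metafemales. Myo81F, an unconventional myosin that spans bases 567076 to 2532932 of 3R, was at or below 6.50 CPM everywhere and had ratios from 0.177 to 0.458.

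In RNA processing and other roles the values scattered. Dbp80, an RNA helicase of mRNA export, was lower in the 4 trisomy 2L groups (ratios 0.332 to 0.65) and had 1.05 in metafemales and 2.48 in MSL2-metafemales. The cleavage factor gene su(f) on X stayed between 0.838 and 1.07. The neuromusculin gene nrm, a cell adhesion protein, had 20.7, 30.9 and 81.4 CPM in the females and 13.8, 45.5 and 39.2 CPM in the males, at least 1.5-fold above the diploid in 3 of the 4 trisomy 2L groups (1.49 in trisomy 2L females). In metafemales and MSL2-metafemales its ratio was 0.780 and 0.806. The 2 signalling genes cta and fog act in the same pathway of cell shape change, cta as a G protein subunit on 2L and fog as the secreted ligand on X. In metafemales and MSL2-metafemales their ratios were 0.514 and 0.368 for cta and 1.80 and 1.99 for fog, whose annotation overlaps that of CG42346.

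Clamp, a zinc finger protein that binds GA-rich DNA and helps bring the MSL complex to X, lies at bases 22165720 to 22169143 of 2L and overlaps CG42748. Its level was 75.3 CPM in diploid females, 65.9 in trisomy 2L females and 45.4 in MSL2-trisomy 2L females, and 84.4, 94.3 and 90.4 CPM in the males. From diploid females to MSL2-metafemales it was 69.3, 37.8 and 31.5 CPM. Clamp was named after its values were seen.

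Among the lowest genes of 2L was Slmap, a component of the STRIPAK phosphatase complex, with 267, 40.6 and 12.5 CPM in diploid, trisomy 2L and MSL2-trisomy 2L females. The diploid female value of Slmap in the other table was 59.0 CPM, and its male values of 127, 132 and 104 CPM were close together, so the female ratios of 0.152 and 0.0469 rest on a diploid mean that differed between the tables. Others of the most extreme ratios rest on small values. CG40198, an uncharacterized gene of 3R, had 2.39 CPM in diploid females and 10.5 and 19.5 in trisomy 2L and MSL2-trisomy 2L females, and 0.503, 10.4 and 21.5 CPM in the metafemale series. CG40198 was among the 4 highest pericentric genes in all 6 comparisons, with ratios from 4.41 to 42.8. Cp110, a centriole protein of X, had 0.00552 CPM in diploid females of the metafemale table and 1.81 in metafemales, so its fold of 329 has no firm base. The lethal gene l(3)80Fg (listed as CG40178) had 0.665, 6.31 and 0.0299 CPM in the 3 female groups of the trisomy 2L table but 29.5 CPM in the diploid females of the other. CG3651 was listed only in the aneuploid groups, from 3.06 to 11 CPM, and overlaps CycK, a cyclin that was higher in MSL2 groups (57.8 CPM in MSL2-trisomy 2L females against 14.1 in diploid females, and 70.6 against 29.4 in males).

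The change with MSL2 was read from MSL2 groups over the same aneuploidy without MSL2. The fathers also differed between these groups, and the sequencing run may have, so neither can be told apart from MSL2 in these ratios. On 3L the median ratio was 0.658 in trisomy 2L females, where 20 of 38 genes were lower and 1 was higher (21.5% of all genes were lower and 10.8% higher). In males the 3L median was 0.900, with 5 of 39 genes lower and none higher (8.44% and 8.13% of all genes), and in metafemales it was 0.989, with 4 of 36 lower and 5 higher (15.3% and 10.3% of all genes). The 3R genes had medians of 1.00, 0.926 and 1.10 in the same order. The 2L genes were about as low as those of 3L in females, with a median of 0.689. On 2L, 12 of 25 genes were lower against 22.8% of the rest of 2L. With the rRNA copies included, the X genes had 1.11 and all pericentric genes 0.873, against 0.911 for all genes. The 9 rRNA copies with both means had a median of 1.99. Without them the median of all pericentric genes was 0.792, with 39 of 104 (37.5%) lower and 6 higher. Examples of 3L genes low with MSL2 in females were scro (scarecrow), a homeobox gene with 7.41 CPM without MSL2 and 1.83 with it, l(3)80Fj with 91.9 and 29.0 CPM, and vtd as above. The corresponding ratios in males were 1.15 for scro, 0.835 for l(3)80Fj and 0.737 for vtd. Whether the female and male values differ could not be tested.

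The rRNA copies form a class of their own. These are near-identical copies of 18S, 5.8S and 28S sequence next to the rDNA of X, so reads can be placed on any of them and their values are uncertain. In the trisomy 2L table the 10 copies summed to 105 CPM in diploid females, 54.3 in trisomy 2L females and 130 in MSL2-trisomy 2L females, and 140, 44.6 and 62.1 CPM in the males. In the metafemale table they summed to 3355 CPM in diploid females, 1492 in metafemales and 754 in MSL2-metafemales, with 3480 CPM in diploid males. The diploid sums thus differed between the tables far more than the groups within a table, and the 28S copy CR45855 was without a mean in MSL2-metafemales.

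Diploid means of the other pericentric genes could be compared between the tables as well, since both hold Canton S larvae, which the study's methods list as separate sets of libraries. Without the rRNA copies the median absolute log2 difference was 0.50 in females and 0.51 in males, and 43.4% and 45.8% of the genes differed at least 1.5-fold in either direction, where the shares among all genes were 49.7% and 54.1%. The median difference was log2 -0.05 in females, against 0.12 for all genes, and -0.08 in males, against -0.19. By arm it was -0.30 in females and -0.49 in males on 3R and -0.38 in males on 2L, so shifts of this size occurred between diploid means with no aneuploidy. The gene wap (wings apart), for example, had 116 CPM in diploid females of the trisomy 2L table and 35.5 CPM in those of the metafemale table, and ratios of 0.361 in trisomy 2L females and 1.54 in metafemales.

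**Figure D4:**
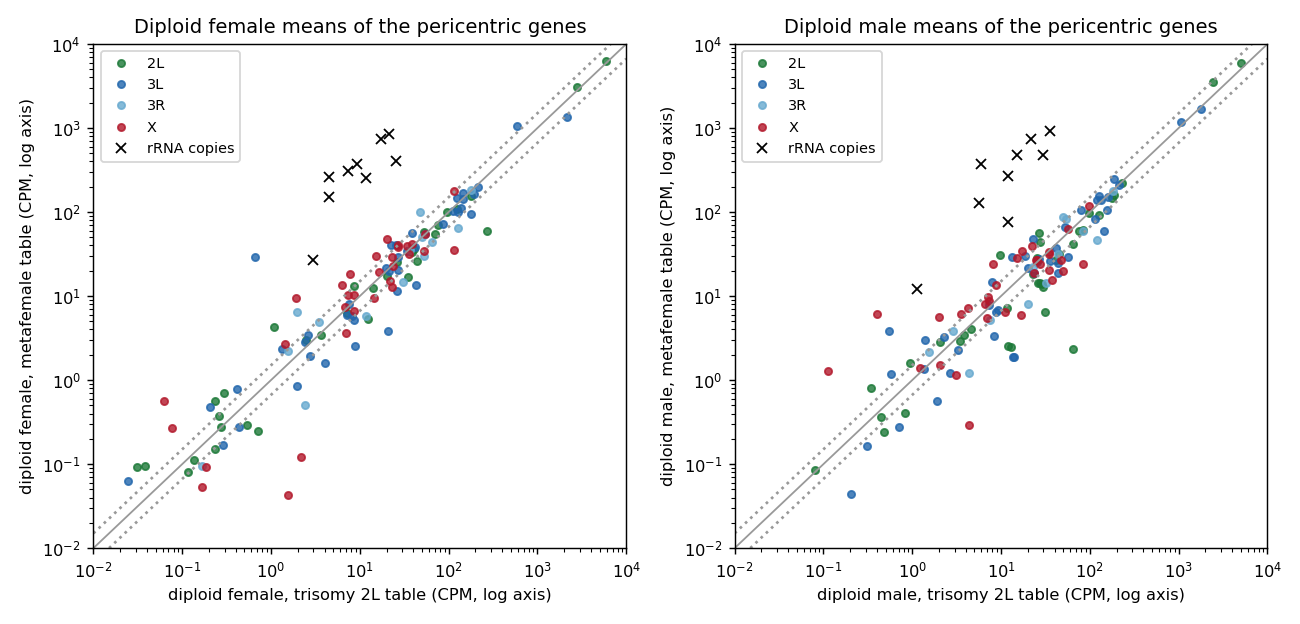
Diploid means of the pericentric genes in CPM in the trisomy 2L table (horizontal log axis) and the metafemale table (vertical log axis), for females (left) and males (right), with the solid line at equality and dotted lines at 1.5-fold. Coloured points are genes by arm and crosses rRNA copies, which lie far above the line in both sexes (sums of 105 and 3355 CPM in females).

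Between diploid males and females the median ratio of pericentric genes was 1.05 in the trisomy 2L set, against 1.10 for all genes, and 1.03 in the metafemale set, against 0.944. Males were lower for 13 and higher for 28 of 119 genes of the trisomy 2L set, where 8.66% of all genes were lower and 27.8% higher. In the metafemale set 20 of 116 were lower and 22 higher, where 18.5% and 21.3% of all genes were. A cluster at the outer edge of the 2L pericentric region had its signal in males and was near 0 in females. CG15219 had 186 CPM in diploid males, 90.2 and 84.1 in trisomy 2L males without and with MSL2, against 0.232, 0.305 and 0.0384 CPM in the females. CG31601 had 65.4, 38.8 and 27.2 CPM in the males and no mean in the females of that table, with 0.0377 CPM in MSL2-metafemales, and ttm3 had 25.9, 9.54 and 9.14 CPM in males. CG31693, CG6675, CG10834, CG34173 and the pair tplus3a and tplus3b behaved alike in sex, as did CG12446, CG34334, CG12061 and CG17601 on X, CG32461 on 3L and Pzl on 3R. Of this class tplus3b was higher in trisomy 2L males (2.06 CPM in diploids, 5.81 and 6.31 in the trisomy groups), as was CG12446 (ratios 1.59 and 1.95). Summed over the 4 testis markers found, diploid males had 413 CPM and males with trisomy 2L 142, or 88.6 with MSL2 as well. Of these sums bol alone held 352, 109 and 60.1 CPM. The others lay between 13.2 and 25.5 CPM in diploid males, 8.94 and 12.8 with trisomy 2L, and 7.89 and 10.9 with MSL2 too. The diploid males deposited beside the metafemales had 27.5 CPM over 3 markers. This sum lacks bol and cannot be set against 413 CPM. Its members can, sa and aly lay between 4.37 and 11.7 CPM. The part of testis content in these values was not tested. A ratio of female groups for these genes, such as 0.0233 for CG6675 in MSL2-metafemales, rests on 0.276 and 0.00643 CPM.

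Long introns were common among the chromosome 3 genes. By the Ensembl annotation, the longest intron of a gene had a median of 6040 bases in the 53 pericentric genes of 3L and 3R that passed the 1 CPM minimum, and 34% of them had an intron over 10 kb. For the rest of these arms the values were 158 bases and 8.19%. On 2L the medians were 200 bases for pericentric genes and 125 for the rest, and on X 501.5 and 283. In MSL2-trisomy 2L females the pericentric chromosome 3 genes with an intron over 10 kb had a median ratio of 0.289 and the others 0.513. The values were 0.524 and 0.65 in trisomy 2L females, 0.567 and 0.729 in the males, 0.465 and 0.674 in the males with MSL2, 0.622 and 0.678 in metafemales, and 0.749 and 0.608 in MSL2-metafemales. Intron length and distance past the limit were not separated.

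**Figure D5:**
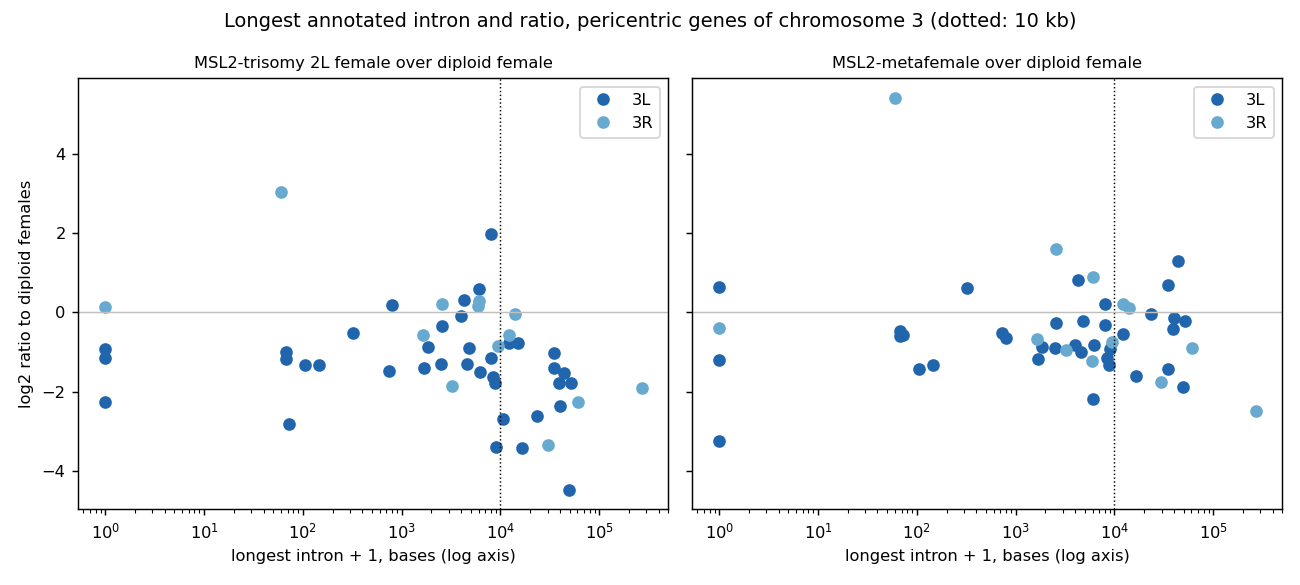
Log2 ratio to diploid females (vertical axis) against the longest annotated intron plus 1 base (horizontal log axis) for pericentric genes of 3L and 3R, in MSL2-trisomy 2L females (left) and MSL2-metafemales (right); the dotted line marks 10 kb. On the left the genes with longer introns had a median ratio of 0.289 against 0.513 for the others, and on the right 0.749 against 0.608.

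Genes linked to heterochromatin, not all of which build it (JIL-1 and Kdm4A are among them), were looked at as well. They came from a list of 21 of which 19 were found. HP1a, which binds methylated histone H3, had 201 CPM in diploid females, 196 in trisomy 2L females and 132 in MSL2-trisomy 2L females, and 225, 212 and 244 CPM in the males. Its log2 ratio was -1.31 in metafemales and -1.69 in MSL2-metafemales. Of the list, 6 of 19 genes were lower and 1 higher in trisomy 2L females (24.1% of all genes were lower and 25% higher). In MSL2-trisomy 2L females 13 were lower and 1 higher of 18 (34.9% and 26.7% of all genes). Males with trisomy 2L alone had 5 lower and 1 higher (31.2% and 23.9%). In MSL2-trisomy 2L males 5 were lower and 3 higher (31.3% and 26.2%), in metafemales 7 and 3 (31.1% and 18.6%), and in MSL2-metafemales 9 and 4 of 18 (39.3% and 20%). In males and in metafemales without MSL2 the counts of lower genes lay near the share of all genes. The histone H3 lysine 9 methyltransferase gene Su(var)3-9 was lower in all 6 comparisons, with log2 ratios from -0.76 to -0.59. The gene egg, for another enzyme of that kind, was higher in the 4 trisomy 2L groups (log2 1.11 to 1.52). Its log2 ratio was -0.20 in metafemales and -0.68 in MSL2-metafemales. Diploid means of egg differed between the tables, at 13.7 and 34.7 CPM in females and 13.4 and 31.8 CPM in males, so its ratios depend on the table.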

How the data were processed

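The authors aligned reads with HISAT2, counted transcripts with StringTie, divided counts by mapped reads to give CPM, adjusted these CPM for sequencing batch with ComBat on a log scale, removed values not above 0 (such cells are empty) and deposited 1 mean per group. The authors also deposited ratio columns of these means, which were not used. Which libraries entered the means without MSL2 is not stated in the sources used here. The diploid columns, the denominators of the ratios to diploids, are means of samples outside the sample list used here and were taken as the authors' values.

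Transcripts were summed per gene and arm and filtered at a mean of 1 CPM over all group means, missing means counting as 0, and log2 ratios were taken where both groups had a mean. The filter mean includes the compared groups, so the counts describe the genes that passed. No test was made, since the tables hold 1 mean per group, and the planned tests of single libraries were not possible. Depth is unknown, so no counting interval was given. Symbols in the tables had lost the letters NA and were restored by position, and 29 symbols were restored or renewed from RefSeq (Release 6), 136 genes having the same span. Introns came from the Ensembl annotation.

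Genes named were members on role lists, the 4 highest and 4 lowest ratios of each comparison, the 5 highest means, members without a mean in some group, and msl-2; others were chosen after their values were seen. The members and lists were chosen with earlier results of these data known. The median of all genes moved by over 0.1 log2 under a trimmed mean in 5 comparisons (0.10 to 0.33) and by -0.19 and -0.11 with equal column totals in MSL2-metafemales and MSL2-trisomy 2L males. Changes are therefore given beside all genes. The calculation was tested on simulated data. The software was Python 3.11.15 with pandas 2.3.3 and numpy 2.4.6 for the values and matplotlib 3.10.9 for figures.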

Additional observations from a re-analysis of the deposited data

How the results depend on the processing

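No paired analysis was possible because the tables hold 1 mean per group and no library values, and leaving out a replicate was not run for the same reason. The median of pericentric genes stayed below that of all genes, and the median on chromosome 3 below that of the rest of 3L and 3R, in all 12 settings tried: the one reported, 2 scalings, 2 minimum levels, 2 pseudocounts, transcripts with both means, single transcripts, limits moved 200 kb and 2 sets of RNA genes left out (the set of all 10 rRNA copies was added after seeing the data). The chromosome 3 difference ranged from -0.60 to -0.43 log2 in trisomy 2L females, -1.04 to -0.83 in MSL2-trisomy 2L females, -0.45 to -0.23 in trisomy 2L males, -0.65 to -0.43 in MSL2-trisomy 2L males, -0.52 to -0.31 in metafemales and -0.44 to -0.16 in MSL2-metafemales. For all pericentric genes it came as near to 0 as -0.05 in MSL2-metafemales. Counts moved by over 1.5 times in settings that use more units or fewer genes. With single transcripts, units past 1.5-fold numbered 137, 144, 145, 154, 145 and 144 in the order just given, and those of 3L and 3R that were lower 60, 65, 49, 56, 53 and 47. At a minimum of 10 CPM, 39, 46, 41 and 45 genes were past 1.5-fold in the 4 trisomy 2L groups in that order, and 23 of 3L and 3R were lower in MSL2-trisomy 2L females. With the trimmed mean set to 0, 17 of 3L and 3R were lower in MSL2-metafemales. For single genes and arms 53 values moved and 1688 did not, and no value that differed 1.5-fold changed its sign. The unknown depth and the single mean per group limit every ratio, most of all for genes under 1 CPM.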
